A study of Arabidopsis thaliana with 6 samples.

Results

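The DEK domain genes of Arabidopsis thaliana are DEK3 (AT4G26630), AT5G63550, AT3G48710 and AT5G55660, 4 of the 27444 protein-coding genes on the 5 nuclear chromosomes. They were taken as a named list of loci, and a peak was counted for a gene when it overlapped the gene span or lay within 1 kb of it on either side. By that rule they held 9 of the 12491 deposited peaks. The gene table gives the name DEK-domain containing protein 3 to AT4G26630 and no DEK name to the other 3 loci, so those are called by locus. The measurement was ChIP-seq with an antibody to green fluorescent protein on nuclei of whole Col-0 seedlings that overexpress DEK3 tagged with cyan fluorescent protein (CFP). The 3 ChIP libraries came from lines OE3-1, OE9-1 and OE17-4, each an independent overexpressor, and their 3 inputs were not analysed here. All were 14-day-old plants grown on soil in 16 h of light and 8 h of dark, and each line was 1 library, so no value has a replicate within a line. The promoter of the transgene is not given in the sources used here, and no untagged or wild-type ChIP was analysed here.

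DEK proteins are chromatin proteins of animals and plants. They bind DNA through a SAP domain and a C-terminal DEK domain, prefer bent and supercoiled DNA over a particular sequence, and associate with histones. In human cells DEK was first known from a leukaemia fusion gene and acts in chromatin structure, replication and RNA processing, and in Arabidopsis DEK3 is known as a nuclear protein that affects nucleosome occupancy and the response to salt. The genes described here encode that protein and its relatives, so the peaks show where reads of the DEK3-CFP immunoprecipitation piled up on the family's own loci.

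The family was unevenly covered. Peaks of all 3 lines were found at DEK3, while AT5G63550 had peaks of OE9-1 and OE17-4 and AT3G48710 had a peak of OE3-1. At AT5G55660 there was no peak of any line. Each line therefore had a peak at 2 of the 4 genes. Without 18 rows that are written differently from the rest the DEK3 peaks of OE3-1 and OE9-1 are lost, which leaves DEK3 with a peak in 1 line and OE3-1 and OE9-1 with 1 gene each. The highest authors' Wilcoxon filter p-value was 0.1 in OE3-1 and OE9-1, against 9.99e-05 in OE17-4 without those rows. At a Wilcoxon limit of 0.0001 in all lists, 0 of the 4 genes were left in OE3-1, 0 in OE9-1 and 2 in OE17-4. At an authors' false discovery rate (FDR) of at most 1%, 1 gene was left in OE3-1, 0 in OE9-1 and 2 in OE17-4. At that FDR 0 genes had peaks of at least 2 lines. The median FDR was 2.35% in OE3-1, 2.73% in OE9-1 and 1.08% in OE17-4, so this limit also removes many peaks of each list. The share of all genes left at either limit was not computed. Without these limits, 22.5% of all protein-coding genes had a peak in the span or within 1 kb in OE3-1, 12.2% in OE9-1 and 13.9% in OE17-4. The 4 genes are long, at 5366 bp for DEK3, 4919 bp for AT5G55660, 3694 bp for AT3G48710 and 3681 bp for AT5G63550, against a median of 2078 bp over all genes. Longer genes were hit more often, and among the 2822 genes of 3681 to 5366 bp the shares were 35.6% in OE3-1, 16.4% in OE9-1 and 18.1% in OE17-4. A peak of at least 1 line was found at 3 of the 4 genes, against 41.0% of all genes and 56.1% of those in this range of length, and peaks of at least 2 lines at 2 of the 4, against 7.20% and 13.3%. In the gene span alone, each line again had a peak at 2 of the 4 genes, against 15.7% of all genes in OE3-1, 5.26% in OE9-1 and 9.22% in OE17-4. With 4 genes per line these counts are a description and were not tested. The OE3-1 list as used here held no peak in the first 1 Mb of any chromosome, where OE9-1 held 171 and OE17-4 held 163. None of the 4 genes lies there, and without the 1440 genes that do, the OE3-1 share over all genes was 23.8%.

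**Figure D1:**
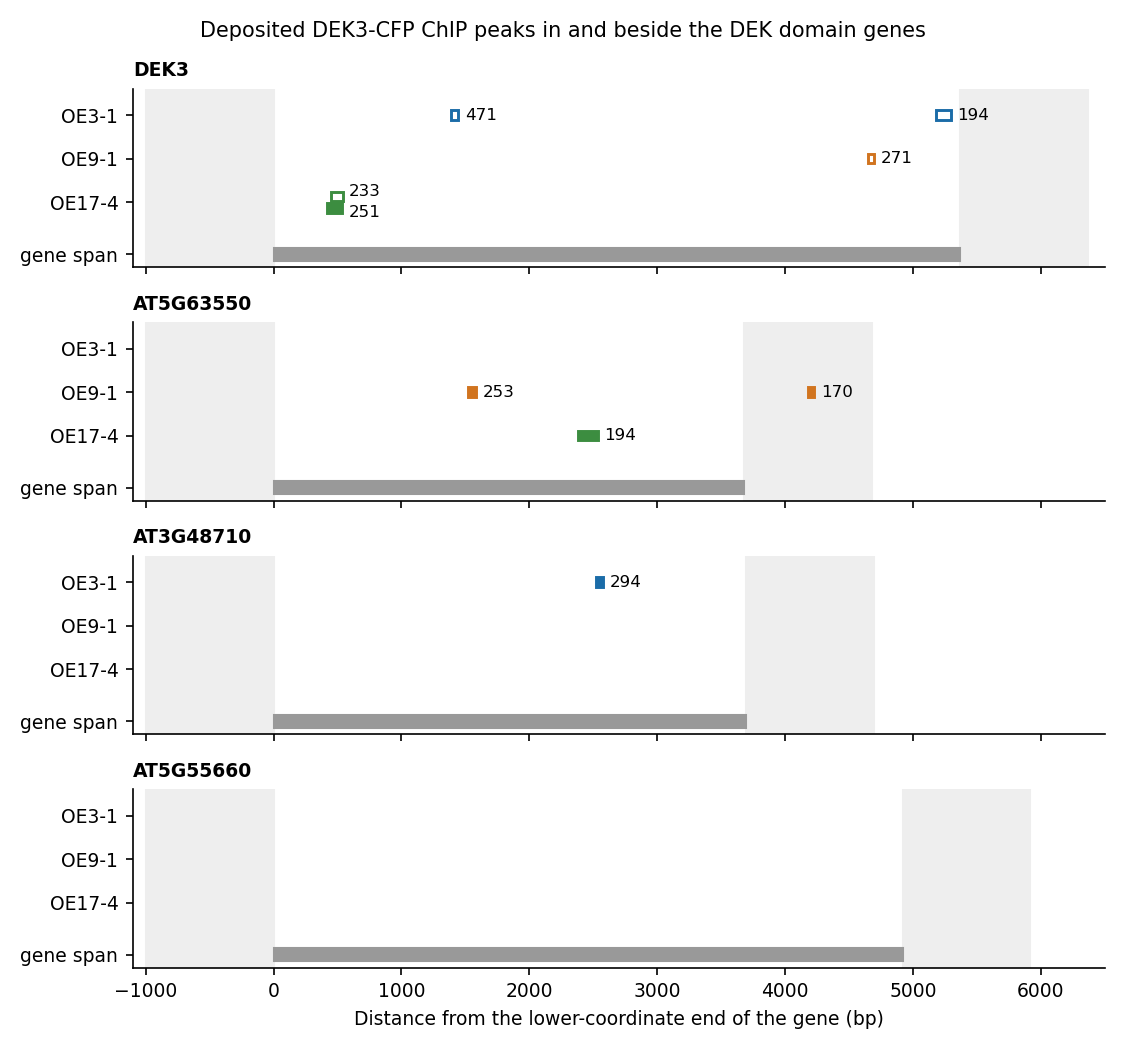
Position of each deposited peak along the 4 genes, in bp from the end of the gene span with the lower coordinate, with 1 row per line, the span as a grey bar and the 1 kb on either side shaded. Boxes are drawn to the width of the peak with the number of reads beside them, and open boxes are rows whose region is written with 3 dots. DEK3 has boxes in all 3 rows, near both ends of the gene and at 26.4% of its length, while AT5G55660 has none.

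DEK3 held 5 peaks, all inside its span on chromosome 4 (build TAIR10). In OE17-4 they lay near the lower end of the gene, at 13430826 to 13430943 with 125 forward and 126 reverse reads and at 13430852 to 13430946 with 117 forward and 116 reverse reads. Their lengths were 118 and 94 bp and their midpoints were 479 and 494 bp from that end. These peaks share 92 bp, so they mark 1 site that was listed with 2 sets of values. In OE3-1 a peak of 57 bp lay at 13431794 to 13431851, at 26.4% of the span counted from the lower end, with 194 forward and 277 reverse reads. A second OE3-1 peak of 115 bp lay at 13435586 to 13435701, 127 bp from the upper end, with 106 forward and 88 reverse reads. The OE9-1 peak of 47 bp lay at 13435055 to 13435102, at 87.1% of the span, with 144 forward and 127 reverse reads.

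No position of DEK3 was covered in more than 1 line. The nearest peaks of different lines were those of OE9-1 and OE3-1 near the upper end, 484 bp apart, and next came OE17-4 and OE3-1 near the lower end, 848 bp apart. A gene with peaks of all 3 lines was uncommon, at 0.426% of all protein-coding genes and 0.780% of those of 3681 to 5366 bp. At least 2 OE3-1 peaks were found at 3.90% of all genes. Every OE3-1 and OE9-1 peak of DEK3 has its region written with 3 dots, and such rows name 8 genes in the lists. The shares over other genes rest mostly on ordinary rows, so they do not show that DEK3 stands out. Because the plants carry a DEK3 transgene and the inputs were not analysed here, reads of the transgene and of the native gene cannot be told apart at this locus. The other 3 loci are not the transgene, but whether reads of DEK3 also align to its relatives was not tested. The table gives no strand, exons or untranslated regions, so which end of a gene is its start, and whether a peak is exonic or intronic, is not stated.

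Most of the DEK3 peaks are written differently from the rest of the lists. In 18 of the 12491 rows the region is written with 3 dots between start and end, and 4 of these are DEK3 rows: both OE3-1 peaks, the OE9-1 peak, and the second OE17-4 peak. The 18 rows name 8 genes. DEK3 and TOP1ALPHA, a type I DNA topoisomerase gene, have 4 each, EFS (AT1G77300), a histone methyltransferase gene, has 3, and the DNA methyltransferase gene CMT3 (AT1G69770) and MBD9 (AT3G01460), which encodes a methyl-CpG-binding domain protein, have 2 each. The homeobox gene HB-1 (AT1G28420), AT5G47690 and DEK1 (AT1G55350) have 1 each. DEK1 encodes the calpain Defective Kernel 1 and is no DEK domain gene in spite of its symbol. DEK3 was the single gene with such a row in all 3 lines. Some of these rows also follow other limits or rules than the rest. In OE3-1 their FDR reached 8.933%, against 4.99% among the other rows of that list. In OE9-1 and OE17-4 it reached 4.9% and 4.752%, below the 4.98% and 4.99% of the other rows. The DEK3 rows among them had an FDR of 0.026 to 3.837%. The length of the rows with 3 dots is given as end minus start in all 18, as in the rest of OE3-1, while no other row of OE9-1 or OE17-4 gives it so. How they came into the lists is not given in the sources used here, so the DEK3 peaks that rest on them, and their ranks, need not come from the same peak calling as the rest.

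The OE17-4 site is the place where both kinds of row can be set side by side. It is the 1 case of the 18 in which such a row overlaps another row of its list, and among the other rows no pair within a list overlaps. For that site the row with 3 dots gives an authors' FDR of 0.026% and a Wilcoxon filter p-value of 6.057e-07, and the other row gives 1.17% and 4.28e-05. The rows also differ in the gene named, since the authors assigned the row with 3 dots to DEK3 (AT4G26630) and the other to its neighbour AT4G26620, which lies 356 bp from DEK3. The peak itself lies inside the DEK3 span. Without the rows written with 3 dots, DEK3 had a peak in OE17-4 and in neither of the other lines, and 0 of the 4 genes had peaks in all 3 lines, against 0.408% of all genes counted the same way. The 3 other family members have no row written with 3 dots, so their peaks are the same in either reading.

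AT5G63550 had 3 peaks on chromosome 5, of which 2 came from OE9-1 and 1 from OE17-4. The OE9-1 peak in the gene spans 25446099 to 25446161, at 42.2% of the span counted from the lower end, with 138 forward and 115 reverse reads over 63 bp. The second OE9-1 peak, of 51 bp at 25448753 to 25448803 with 81 forward and 89 reverse reads, lay 498 bp beyond the upper end. It falls in the 1056 bp between AT5G63550 and FACT, a caffeoyl transferase gene, and the authors named AT5G63550 in its row. The OE17-4 peak of 153 bp spans 25446959 to 25447111, at 66.8% of the span, with 94 forward and 100 reverse reads.

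The lines marked different places in AT5G63550. The OE9-1 and OE17-4 peaks in the gene were 798 bp apart, and OE3-1 had no peak there, its nearest being 5159 bp beyond the upper end at GSA1, a gene of tetrapyrrole synthesis. Both OE9-1 peaks had an authors' Wilcoxon filter p-value of 0.09, close to the highest value of 0.1 in that list, and 95.5% of the OE9-1 peaks had a lower one. The OE17-4 peak had 1.08e-06, with 23.2% of the OE17-4 peaks lower. The lists differ in their limit, since the highest value among OE17-4 rows not written with 3 dots was 9.99e-05, so these p-values are not compared between lines. At least 2 OE9-1 peaks were found at 0.776% of all genes. Peaks of OE9-1 and OE17-4 without OE3-1, as here, occurred at 1.21% of all protein-coding genes and at 1.88% of those of 3681 to 5366 bp. With the gene span alone AT5G63550 kept 1 peak in each of these lines.

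AT3G48710 had 1 peak, in OE3-1. It spans 18043199 to 18043253 on chromosome 3, at 69.1% of the gene span counted from the lower end, and held 180 forward and 114 reverse reads over 54 bp. Its FDR was 0.32%, and 10.0% of the OE3-1 peaks had a lower one, while its Wilcoxon filter p-value of 0.02 was higher than that of 69% of the list. A peak of OE3-1 and of no other line was found at 16.5% of all genes and at 24.3% of those of 3681 to 5366 bp, so this pattern was a frequent one. OE17-4 came near the gene with a peak of 175 bp at 18038923 to 18039097, 1578 bp beyond the lower end, with 110 forward and 86 reverse reads and an FDR of 0.00444%. The authors assigned it to CXE12, a carboxylesterase gene, and it lies outside the 1 kb that was counted. The nearest OE9-1 peak was 16079 bp away.

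AT5G55660 had no peak in its span or within 1 kb in any line, although at 4919 bp it is longer than 93.7% of all protein-coding genes. That was the case for 59.0% of all genes and for 43.9% of those of 3681 to 5366 bp. The nearest peak was an OE17-4 peak of 154 bp, 4098 bp beyond the upper end, at 22547572 to 22547725 on chromosome 5, with 39 forward and 46 reverse reads. In the authors' row it belongs to the next gene, AT5G55670. The nearest OE3-1 peak was 5637 bp beyond the lower end, with 89 forward and 117 reverse reads, and the nearest OE9-1 peak was 18815 bp beyond it, with 95 forward and 79 reverse reads. Of all genes, 48.9% had a nearer OE3-1 peak, 70.5% a nearer OE9-1 peak and 29.1% a nearer OE17-4 peak, so AT5G55660 lay within the common range of distances in each line. The lists hold reads inside peaks alone, so how many reads fell on AT5G55660 is unknown, and an absent peak does not show absent binding.

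**Figure D2:**
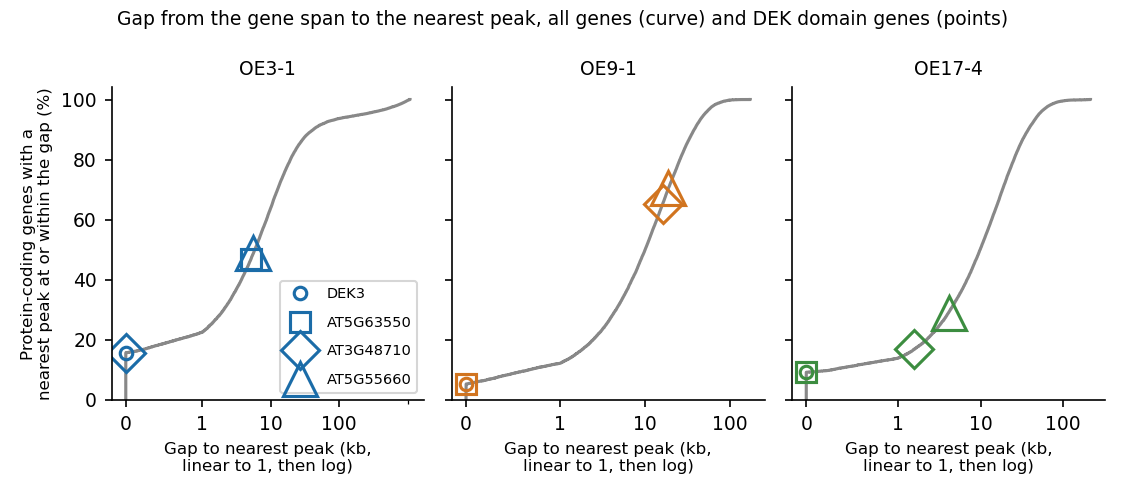
Gap in kb from each gene span to the nearest peak of a line, with the grey curve giving the percent of all protein-coding genes at or below each gap and the open symbols the 4 DEK domain genes. The horizontal axis is linear up to 1 kb and logarithmic beyond it. The genes without a peak, at gaps of 1578 to 18815 bp, lie on the rising part of the curve, where many of all genes lie as well.

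Of the 9 peaks, 2 passed a test for unequal strands, both in OE3-1, where 31.3% of all peaks passed it. In a narrow site of a ChIP library, reads of the forward and the reverse strand come from opposite ends of the fragments, and similar numbers are usual. The OE3-1 peak of AT3G48710 had 61.2% forward reads (exact 95% interval 55.4 to 66.8%), and the first OE3-1 peak of DEK3 had 41.2% (36.7 to 45.8%). Both differed from equal numbers (exact 2-sided binomial test, Benjamini-Hochberg adjusted over the list, p = 0.00126 and 0.00133), in opposite directions. Reads are not independent molecules, so these p-values and intervals cover counting error within 1 library only. Both peaks are among the 31.3% of OE3-1 peaks that passed this test (40.6% at an unadjusted p under 0.05). The lists also hold the authors' normalized difference between strands. Whether peaks were filtered by strand balance is not stated in the sources used here, so such shares describe the deposited peaks alone. The DEK3 peak is a row written with 3 dots, and without such rows 1 of the 2 calls is left. The second OE3-1 peak of DEK3 had 54.6% forward reads (47.4 to 61.8%) and did not pass (exact binomial test, adjusted p = 0.375).

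The peaks of the other lines did not pass. In OE9-1 the forward share was 53.1% at DEK3 and 54.5% and 47.6% at AT5G63550, and the exact binomial test called 0 of these 3 peaks (0 at an unadjusted p under 0.05), against 13.2% of that list (25.7% unadjusted). In OE17-4 it was 49.8% and 50.2% in the overlapping peaks of DEK3 and 48.5% at AT5G63550, and the test called 0 of 3 (0 unadjusted), against 0.234% of that list (10.2% unadjusted). The exact 95% intervals of these 6 shares lay within 39.9 to 60.8%, and a peak that did not pass is not shown to have equal strands.

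**Figure D3:**
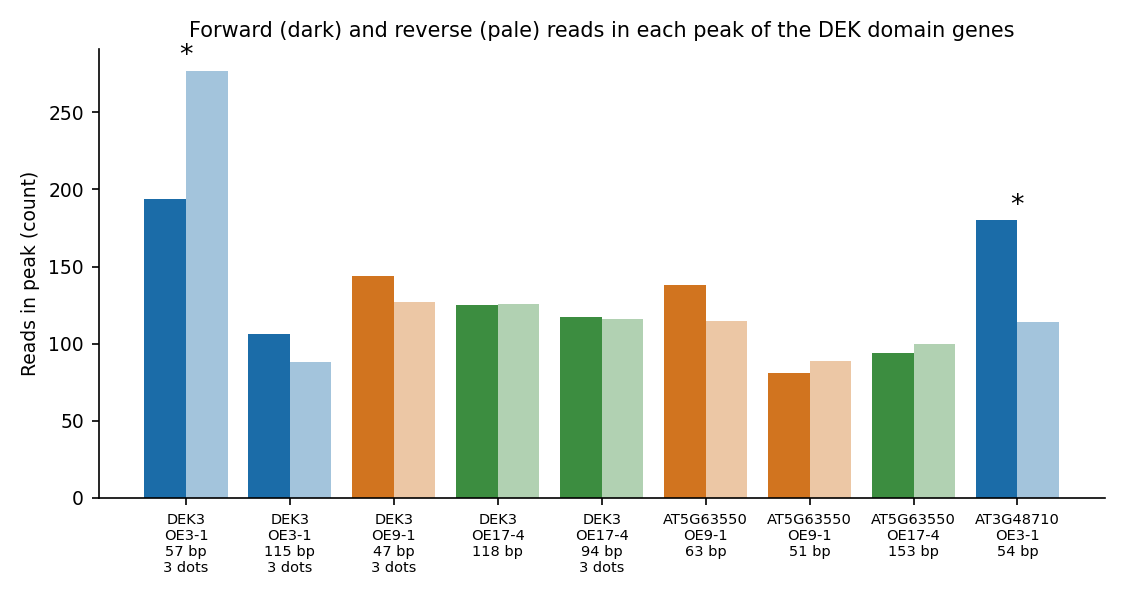
Reads on the forward strand (dark bars) and on the reverse strand (pale bars) in each of the 9 peaks, with the gene, the line and the length of the peak below and "3 dots" where the row is written so. Stars mark the 2 peaks with unequal strands at an adjusted p under 0.05 (exact binomial test), both from OE3-1, with 194 against 277 reads at DEK3 and 180 against 114 at AT3G48710.

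Within their own lists 7 of the 9 peaks held more reads than 75% of the others. Among these 7 are both overlapping OE17-4 rows of DEK3, which mark the same site. Also among them are DEK3 rows written with 3 dots, whose ranks need not come from the same peak calling as the rest. The first OE3-1 peak of DEK3, with 471 reads, held more than 98.9% of the OE3-1 peaks and had 8.12 reads per bp, against a median of 3.49 in that list. The second, with 194 reads, held more than 35.1% of them and had 1.67 reads per bp. Thus the 2 OE3-1 peaks of the same gene stood at opposite sides of the list. The OE9-1 peak of DEK3 held more reads than 84.4% of its list, and the OE17-4 peaks more than 94.5% and 92% of theirs. At AT5G63550 the OE17-4 peak held more reads than 83.9% of its list, and the OE9-1 peak in the gene more than 77.1%. The OE9-1 peak beside the gene was lower, with more reads than 31.6% of the list. The peak of AT3G48710 held more reads than 87.8% of the OE3-1 list. Total depth is unknown, so reads are ranked within a list and are not compared between lines.

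By FDR the order was another one. The lowest values were 0.02% for the OE17-4 peak of AT5G63550, with 6.74% of that list lower, and 0.026% for the OE17-4 row of DEK3 written with 3 dots, with 8.41% lower. The other row of that DEK3 site had 1.17%, with 51.5% of the list lower, so the rank of the site depends on which row is read. The OE3-1 peaks of DEK3 had 2.419% and 2.318%, near the middle of the list, where 52.1% and 49.5% of peaks were lower. The OE9-1 peaks were in the weaker part of their list, with 3.837% at DEK3 and 3.77% and 4.35% at AT5G63550, where 72.7%, 70.6% and 86.2% of peaks were lower. An FDR limit of 1% left 3 of the 9 peaks, namely the OE17-4 peak of AT5G63550, the OE17-4 row of DEK3 with 3 dots and the OE3-1 peak of AT3G48710. The share of each list left at that limit was not computed. FDR values are the authors' own, and ranks in lists of different lengths are not compared between lines.

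**Figure D4:**
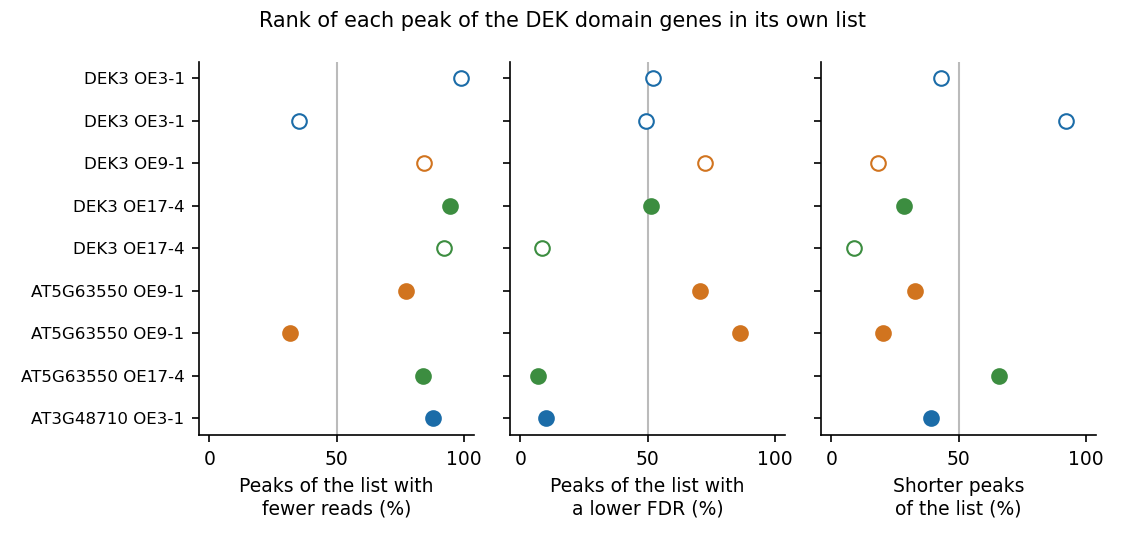
Rank of each of the 9 peaks in its own list, as the percent of peaks with fewer reads (left), with a lower FDR (middle) and of shorter length (right), with open circles for rows written with 3 dots and grey lines at 50%. Of the 9 peaks, 7 lie above 75% by reads, and those of OE9-1 lie at 70.6 to 86.2% by FDR, which is the weaker part of that list.

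Genes of proteins reported to associate with DEK3 were set beside the family. TOP1ALPHA and TOP1BETA encode type I topoisomerases, which relax supercoiled DNA, and 5 genes encode PDS5 cofactors of cohesin, the ring complex that holds DNA strands together. Of these 7 genes 7 had a peak in OE3-1, 3 in OE9-1 and 4 in OE17-4, against 22.5%, 12.2% and 13.9% of all genes. Without rows written with 3 dots the counts were 6, 1 and 4 of 7, and the shares over all genes were the same to the digits given. TOP1ALPHA and AT5G47690, a PDS5 gene, shared with DEK3 the pattern of peaks in all 3 lines and, like DEK3, lost it without those rows. The 7 genes were chosen with earlier results of these data known. Longer genes were hit more often, and these 7 were not set against genes of like length. Their counts are a description and were not tested.

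With its overlapping OE17-4 rows counted as 1 site, DEK3 had 2 OE3-1 sites with 1 site each of OE9-1 and OE17-4, and 19 other protein-coding genes had the same numbers. Counted as rows, with 2 in OE17-4, 0 others did. Of these DEK3 sites, the OE17-4 site alone is left without the rows written with 3 dots. For AT5G63550, with 0, 2 and 1, there were 17 others. The closest by reads in peaks was the homeobox gene HB21, with 0, 479 and 169 reads in the same order of lines, against 0, 423 and 194 at AT5G63550, a summed difference of 0.38 on the log2(reads + 1) scale over the 3 lines. Next came AT5G63280 with 0.50, AT5G61910 with 0.55, HBT, a gene of the anaphase-promoting complex, with 0.57, and FDM3, of a family acting in RNA-directed DNA methylation, with 0.60. Likeness here is of 3 libraries and rests on whole peaks.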

How the data were processed

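Each ChIP library (36 bp single-end reads in 1 lane, per the labels' protocols) came with its own peak list on build TAIR10, per the submitters' processing notes. Which aligner and peak caller were used, and how inputs entered, is not stated in the sources used here. Counts of reads per peak and strand are as deposited by the authors, with no normalization per the file headers. The FDR is the authors' value in percent, the normalized difference between strands the authors' fraction, and the Wilcoxon filter p-value was likewise deposited. After 1, 2 and 2 repeated regions were dropped, OE3-1, OE9-1 and OE17-4 held 5332, 3733 and 3426 peaks, with 1235876, 814853 and 549029 reads in them. Library depth is unknown.

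Gene spans and names were taken from RefSeq (TAIR10.1), whose own coordinates are not printed. A peak counted with 1 bp in the span or in the 1 kb on either side. Strands were tested per peak with an exact 2-sided binomial test (scipy 1.17.1), Benjamini-Hochberg adjusted over the list, at a threshold of 0.05. The procedure was tested on simulated data with independent reads, which cannot show its error rate where reads are not independent. Reads are not independent molecules, so Clopper-Pearson intervals cover counting error only. The family, the partner list and the tests were chosen with earlier results of these data known. Named were the 4 family members, 7 partner genes, neighbours, genes of rows with 3 dots, and up to 5 genes with the same numbers of peaks in each line. CXE12, GSA1 and FACT were named after their values were seen. Alternatives were other flanks, stricter limits, other ways to assign peaks, and leaving out rows with 3 dots or 1 line.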

Additional observations from a re-analysis of the deposited data

How the results depend on the processing

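Of 141 values under an alternative, 105 kept within 1.5 times the reported count or on their side of the threshold and 36 moved. Some of the 105 could not move. AT5G55660 stays at 0 lines under any stricter limit, and DEK3 must have peaks in 2 lines when 1 of its 3 is left out. The tally is therefore no measure of how firm the results are. The merging of overlapping peaks in a list was chosen after seeing the data and leaves 8 in place of 9 peaks. Chosen likewise were overlapping peaks as 1 site in the count of genes with the numbers of DEK3, which gave 19 in place of 0, and the partner genes without rows with 3 dots, which gave 1 in place of 3 in OE9-1. The causes of the moves were not tested, beyond the fewer peaks that stricter limits leave by construction. Flanks of 0 or 500 bp, midpoints in place of overlaps and the authors' gene column moved no count by over 1.5 times. A flank of 2 kb gave AT3G48710 a peak in 2 lines. It also gave 3 genes with a peak in OE17-4, 3 genes with peaks in at least 2 lines, and 11 peaks. The share of all genes with a peak under the 2 kb flank was not computed.

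Without rows written with 3 dots, 1 gene had a peak in OE3-1 and 1 in OE9-1, 0 had peaks in all 3 lines and 1 in at least 2, DEK3 had a peak in 1 line, 5 peaks were left, and 1 peak had unequal strands. For the FDR and Wilcoxon limits that follow, the shares of all genes were not computed. Whether these losses differ from those of other genes is therefore not known. An FDR of at most 1% left 3 peaks, with 1 gene in OE3-1, 0 in OE9-1 and 2 in OE17-4. At that limit 0 genes had peaks in all 3 lines and 0 in at least 2, and DEK3 and AT5G63550 had peaks in 1 line each. The upper 50% of each list by FDR left 4 peaks, with 0 genes in OE9-1, 0 in all lines and 1 in at least 2, and AT5G63550 in 1 line. A Wilcoxon limit of 0.0001 left 3 peaks, with 0 genes in OE3-1, 0 in OE9-1, 0 in all lines and 0 in at least 2, DEK3 and AT5G63550 in 1 line each and AT3G48710 in 0, but the OE17-4 list, apart from rows with 3 dots, already ends at 9.99e-05, so this limit removes none of its other rows.

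With 1 line left out at a time, 1 to 2 genes had peaks in all lines left and 1 to 2 in at least 2 lines. DEK3 had peaks in 2 lines each time, AT5G63550 in 1 to 2 and AT3G48710 in 0 to 1, with 0 without OE3-1, and 6 peaks were left each time. No paired analysis was possible because the inputs were not analysed here and no groups were compared. What depth limits is the reading of an absent peak, since reads outside peaks are not in the lists.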
